A study of Arabidopsis thaliana with 18 samples.

Results

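The 4 Arabidopsis genes AT2G41090, AT3G06200, AT3G12510 and AT2G31945 were chosen by name, with the differences between salicylic acid (SA) and its carrier on these same arrays already known. Each is represented by 1 probe set, so the 4 genes are 4 of the 22810 probe sets on the array, and all 4 passed the filter on low values that left 13652 probe sets for testing. AT3G12510 passed narrowly, with help from its higher values on SA arrays. The choice rested on the difference between SA and carrier, and that difference is therefore given below as a description with no test. Averaged over the triplets of arrays, AT2G41090 and AT3G06200 were lower with SA, by log2 differences of -0.35 (standard error 0.08) and -0.38 (0.11). AT3G12510 and AT2G31945 were higher, by 0.74 (0.25) and 0.73 (0.24). In this average 0.0293% of the tested probe sets were called higher and 0% lower (limma, adjusted p under 0.05), and the members were not among them. Within single triplets, AT2G41090 was among the 0.3% called lower in the second, and AT3G06200 among the 6.11% called lower in the first. These calls repeat the contrast that chose the genes and are no test of them. The working name of the set, genes shifted with SA in every triplet of arrays, was not borne out for all of them. The difference of AT3G06200 was 0.0021 in the second triplet, and AT2G41090 differed mainly in the second.

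Transcripts of Col-0, the common laboratory strain of Arabidopsis, were measured on Affymetrix ATH1 arrays, on which a set of short probes reads each transcript. Carrier plants received silwet, a wetting agent, at 0.02% (9 arrays), and SA plants received the same 0.02% silwet with SA at 0.30 mM (9 arrays), so the wetting agent is common to both treatments. Arrays are named here by the number in their title, and 3 consecutive numbers form a triplet that holds replicate numbers 1, 2 and 3. Silwet arrays 1 to 3 are set beside SA arrays 10 to 12 (first triplet), 4 to 6 beside 13 to 15 (the second), and 7 to 9 beside 16 to 18 (the third). The labels used here give no tissue, plant age or harvest time. The study took plants at more than 1 time after treatment, but no label ties a triplet to a time. The labels do not say whether the 3 arrays of a group came from separate plantings, so a p-value measures the spread between these arrays, which may be technical. RNA from fewer cells of a type and less RNA per cell cannot be told apart in such samples.

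SA is a defence hormone of plants. It accumulates in leaves attacked by pathogens that feed on living cells, acts through the receptor and co-activator NPR1 and TGA transcription factors, and switches on pathogenesis-related genes. Calcium signals run beside it: calmodulin and calmodulin-like proteins bind calcium through EF-hand motifs and pass the signal to their target proteins. AT2G41090 is annotated as calmodulin-like, while the gene table used here gives no name or function for the other three genes, so none is assigned to them. In the gene table the second gene after AT2G41090 is TCH3, listed with the synonym calmodulin-like 12, and the second after AT3G12510 is the sulfate transporter gene SULTR4;2. Neither is named by a probe set in the annotation used.

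Array medians of the signal ranged from 29.7 to 36.3, and precision is set by having 3 arrays in each group. The mean signals of the leaf genes RCA, LHCB4.1 and LHCB4.2, which encode rubisco activase and proteins of a light-harvesting complex, were 2661, 3287 and 2002, whereas that of the root gene PYK10 was 95.5. Markers of flower and seed were not analysed here. SA array 10 stood apart from the other arrays in a control for RNA integrity: the log2 ratio of the 3 prime over the 5 prime actin probe set was 6.85 on it, and between 0.15 and 1.51 on the other 17 arrays. Values of the first triplet are therefore given also without array 10.

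The calmodulin-like gene AT2G41090 was among the brightest transcripts on every array and was lower with SA in the second triplet. Its signal was 2417, 2149 and 2476 on silwet arrays 1, 2 and 3, and 2491, 1905 and 1924 on SA arrays 10, 11 and 12. In the second triplet it was 2528, 2675 and 2901 with silwet and 1637, 1331 and 1723 with SA. In the third it was 2218, 2194 and 2324 with silwet and 1953, 2351 and 2003 with SA. Of the 9 SA arrays, 7 thus lay below all 9 silwet arrays, among them all 3 of the second triplet. The exceptions were SA arrays 10 and 17, which lay above all 3 silwet arrays of their triplet. The arrays therefore overlapped between treatments in the first and the third triplet.

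On the log2 scale, AT2G41090 differed between SA and silwet by -0.17 in the first triplet, -0.80 in the second and -0.10 in the third, each with a standard error of 0.13. The second of these equals a 1.74-fold lower signal. Without SA array 10 the difference in the first triplet was -0.29. Between SA and silwet arrays of the same triplet and replicate number it was lower with SA in 7 of 9 pairs, with the lowest value, -1.01, in replicate 2 of the second triplet, and 9.48% of all tested probe sets were lower in at least 7 of 9 pairs. In the second triplet 6.89% of the tested probe sets were lower on every SA array than on every silwet array, as AT2G41090 was. Its 2 small differences depended on the scaling of the arrays: with quantile normalization the first became 0.10 and the third -0.26. The brightest 1% of probe sets began at a signal of 1493 on average on SA arrays 10 to 12, against 1661 on silwet arrays 1 to 3, and at 1807 on SA arrays 16 to 18, against 1616 on silwet arrays 7 to 9. Relative to that bright end, AT2G41090 was at 1.41 ± 0.0818 with silwet and 1.41 ± 0.151 with SA in the first triplet, at 1.60 ± 0.0468 and 0.960 ± 0.0488 in the second, and at 1.39 ± 0.0100 and 1.16 ± 0.0902 in the third (SD, n = 3 each).

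**Figure D1:**
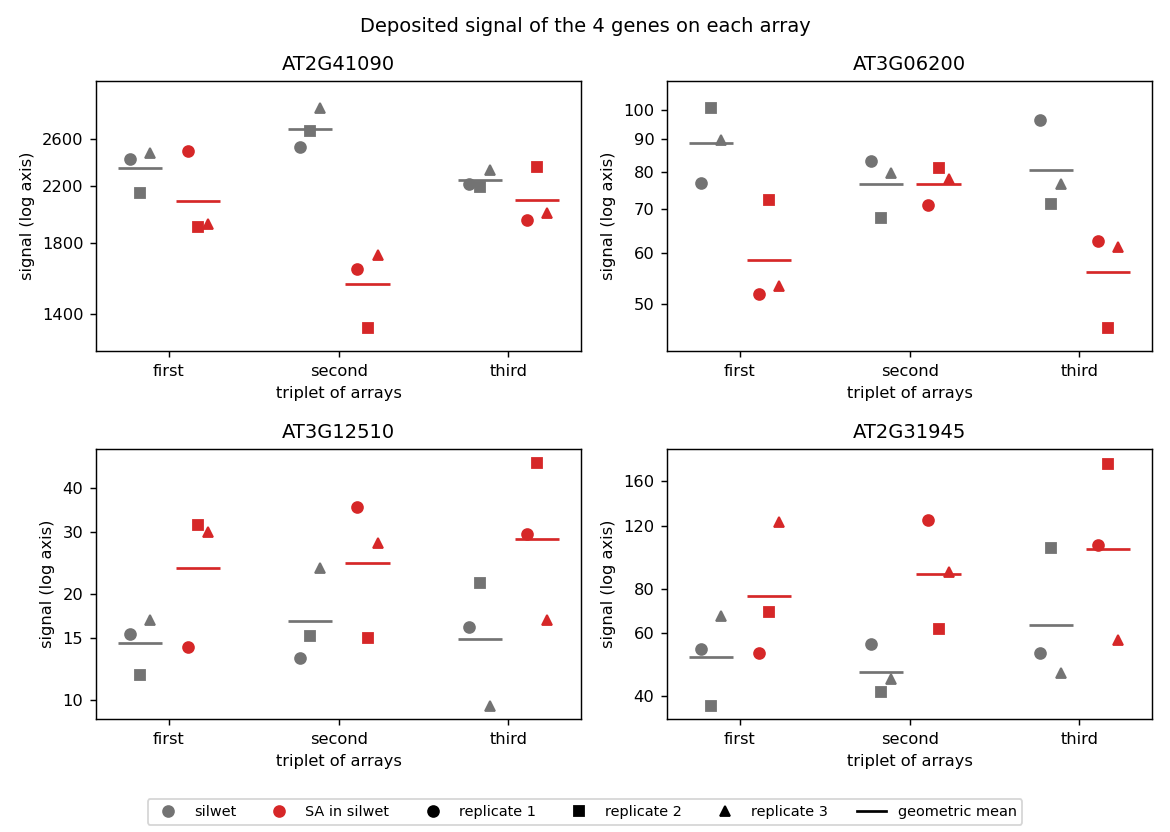
Deposited MAS5 signal (log axis, arbitrary units) of the 4 genes on each of the 18 arrays by triplet, with silwet in grey, SA in red, a symbol for each replicate number and a line at the geometric mean of 3 arrays. AT2G41090 is lowest on the 3 SA arrays of the second triplet (1331 to 1723). AT3G12510 and AT2G31945 are each lowest among the SA arrays of a triplet on arrays 10, 14 and 18. For AT2G31945, SA arrays 11 (68.7) and 16 (106) are also near the highest silwet array of their triplet (66.9 and 104).

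Among the SA arrays, AT2G41090 was lower in the second triplet than in the first by a log2 difference of -0.43 (standard error 0.13), and values on SA arrays 13, 14 and 15 were all below those on arrays 10, 11 and 12. Leaving out SA array 10 gave -0.30 and leaving out SA array 14 gave -0.32. It was -0.38 with each array centred on its median and -0.64 with quantile normalization. These are the same SA arrays that entered the differences with which the gene was chosen, so levels of the members between triplets are given as a description, with no test. From the second to the third SA triplet the difference was 0.43, and between the third and the first it was 0.0037, or -0.37 with quantile normalization. Among the silwet arrays AT2G41090 differed by 0.20 between the second and the first triplet and by -0.26 between the third and the second. Over the array, the SA difference varied between triplets in 8.36% of the probe sets (limma F test of the interaction, adjusted p under 0.05).

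AT3G06200 was lower with SA in the first and the third triplet and level in the second. Its signal was 77.1, 101 and 89.7 on silwet arrays 1, 2 and 3 and 51.7, 72.4 and 53.3 on SA arrays 10, 11 and 12. In the third triplet it was 96.2, 71.4 and 76.5 with silwet and 62.6, 45.8 and 61.2 with SA. In both of these triplets every SA array lay below every silwet array. In the second triplet the values were 83.2, 67.8 and 79.7 with silwet and 71.2, 81.1 and 78.2 with SA, and the treatments overlapped.

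The log2 difference of AT3G06200 between SA and silwet was -0.60 in the first triplet, 0.0021 in the second and -0.53 in the third, each with a standard error of 0.19. These are a 1.52-fold lower signal in the first triplet and a 1.44-fold lower signal in the third. Of the tested probe sets, 17.8% were lower with no overlap in the first triplet and 6.77% in the third. AT3G06200 was lower with SA in 8 of 9 same-numbered pairs, against 2.15% of all probe sets in at least 8; the exception was replicate 2 of the second triplet, at 0.26. Without SA array 10 its difference in the first triplet was -0.51. The level among the SA arrays was 0.39 log2 units higher in the second triplet than in the first and 0.45 lower in the third than in the second (log2 differences 0.39 and -0.45). Among the silwet arrays the largest of the 3 differences between triplets was -0.21.

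AT3G12510 was a dim transcript that was higher with SA in the mean of every triplet, with wide scatter. Its signal was 15.3, 11.8 and 16.9 on silwet arrays 1, 2 and 3 and 14.2, 31.4 and 30.05 on SA arrays 10, 11 and 12. In the second triplet it was 13.2, 15.1 and 23.8 with silwet and 35.3, 15.0 and 28.0 with SA. In the third it was 16.1, 21.4 and 9.56 with silwet and 29.7, 47.1 and 16.9 with SA. In each triplet 2 SA arrays lay above all 3 silwet arrays, in total 6 of 9 above every silwet array of the study, and 1 lay among them: array 10, 14 or 18. The gene ranked between the 28.1th and the 56.8th percentile of the probe sets of an array, and no detection calls were used here. Its mean exceeded that of only 1.48% of the tested probe sets. The filter took the mean over all 18 arrays, so the higher SA values helped the gene to pass. Shares of the tested probe sets given for it are therefore shares of mostly brighter probe sets.

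The log2 difference of AT3G12510 was 0.71 in the first triplet, 0.55 in the second and 0.95 in the third, each with a standard error of 0.43. The third equals a 1.93-fold higher signal. Without SA array 10 the difference in the first triplet was 1.08. Leaving out SA array 13 or 14 gave 0.29 or 0.90 in the second, and the third was 0.59 without SA array 17 and 0.63 without silwet array 9. Leaving out 1 array splits a same-numbered pair. AT3G12510 was higher with SA in 7 of 9 such pairs, between -0.11 and 1.42, and 6.72% of all probe sets were higher in at least 7. The pairs of replicates 1, 2 and 3 differed by -0.11, 1.42 and 0.83 in the first triplet. They differed by 1.42, -0.01 and 0.24 in the second and, more evenly, by 0.89, 1.14 and 0.82 in the third. The treatments overlapped in all 3 triplets, whereas 12.7%, 5.06% and 4.38% of the probe sets were higher with no overlap in the first, the second and the third.

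AT2G31945 was also higher with SA in the mean of every triplet. Its signal was 54.0, 37.3 and 66.9 on silwet arrays 1, 2 and 3 and 52.7, 68.7 and 123 on SA arrays 10, 11 and 12. In the second triplet it was 56.0, 40.8 and 44.5 with silwet and 125, 61.4 and 88.9 with SA. In the third it was 52.9, 104 and 46.2 with silwet and 106, 180 and 57.5 with SA. The treatments were apart only in the second triplet, where every SA array lay above every silwet array, as did 5.06% of the tested probe sets. In the first and the third, SA arrays 10 and 18 lay among the silwet arrays.

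The log2 difference of AT2G31945 was 0.57 in the first triplet, 0.92 in the second and 0.70 in the third, each with a standard error of 0.42. The second equals a 1.89-fold higher signal. Without SA array 10 the first was 0.84. It was higher with SA in 8 of 9 same-numbered pairs, between -0.03 and 1.16, against 2.04% of probe sets in at least 8. The pairs of replicates 1, 2 and 3 differed by -0.03, 0.88 and 0.88 in the first triplet and by 1.01, 0.79 and 0.31 in the third. Leaving out 1 array splits such a pair, and the mean differences moved when this was done. The first was 0.23 without SA array 12 and 0.35 without silwet array 2. In the third, leaving out SA array 17 gave 0.30, SA array 18 gave 1.13 and silwet array 8 gave 1.06. With limma's array weights the third was 0.084; silwet array 8, which held the highest silwet value of the gene, had a weight of 6.01, and the other 17 arrays had weights between 0.561 and 1.78. By the sign of the mean alone, 6.19% of the tested probe sets were higher in all 3 triplets, as both of these genes were, and 8.68% lower, as AT2G41090 was. AT3G12510 and AT2G31945 were also among the 33 probe sets (0.242% of those tested) whose mean was at least 0.5 log2 units higher with SA in all 3 triplets, a description of the values that chose them. With 16 added before log2, AT3G12510 was at 0.40 and 0.32 in the first and the second triplet and AT2G31945 at 0.46 in the first, all under 0.5. In no probe set did the treatments lie apart in all 3 triplets in one direction (0 higher and 0 lower, 0% each).

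**Figure D2:**
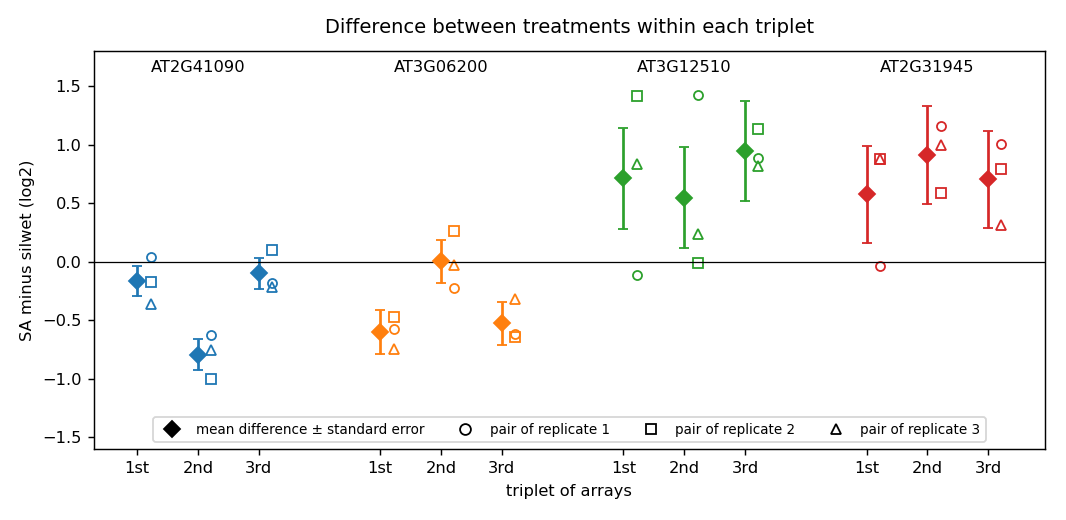
SA minus silwet (log2) of the 4 genes within each triplet, as the mean difference with its standard error from limma (diamonds, n = 3 arrays a group) and as the 3 differences between arrays of the same replicate number (open symbols). AT2G41090 is lowest in the second triplet (-0.80), AT3G06200 is at 0.0021 there, and the means of AT3G12510 and AT2G31945 are between 0.55 and 0.95 in all 3 triplets.

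Between triplets of 1 treatment, the largest of the 3 log2 differences of AT3G12510 was 0.27 among the SA arrays and 0.21 among the silwet arrays. For AT2G31945 they were 0.43 and 0.44, near the standard error of 0.42. Over the array, 2170 probe sets (15.9%) were called higher and 2004 (14.7%) lower in the second than in the first SA triplet. Between the second and the first silwet triplet 1 (0.00732%) was called higher and 42 (0.308%) lower, 43 in all and 112 with the replicate number as a block. Between the third and the first silwet triplet 0.0513% were called higher and 1.57% lower, and between the third and the first SA triplet 16.9% and 14.4%. None of the 4 genes passed the test between replicate numbers (limma F test, adjusted p between 0.678 and 0.993), where 8.49% of the probe sets did.

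The 4 genes differed in how tightly the 3 arrays of a group agreed. The residual SD, in log2 units over the 6 groups, was 0.15 for AT2G41090, 0.21 for AT3G06200, 0.58 for AT3G12510 and 0.57 for AT2G31945, against a median of 0.27 over the tested probe sets. The SD of AT2G41090 exceeded that of 5.97% of the tested probe sets and that of AT3G06200 of 24.8%. Choosing genes on the SA difference can favour little spread within groups, so these low ranks are a description. AT3G12510 and AT2G31945 scattered more than 92.9% and 92.7% of them.

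AT3G12510 and AT2G31945 were high and low on some of the same arrays. Both were lowest among the SA arrays of their triplet on arrays 10, 14 and 18, and both were highest on array 13 in the second triplet and on array 17 in the third. After the mean of each group of 3 arrays was removed, which takes out the SA difference that chose them, their deviations correlated with Pearson's r = 0.81 and Spearman's rho = 0.80 over 18 arrays (exact permutation test of arrays within groups, two-sided, p = 0.00424 and 0.00332). Over the 6 pairs among the 4 genes these were the only ones that passed after adjustment (adjusted p = 0.0255 and 0.0199). That test shuffles the silwet and SA arrays of a triplet separately, although arrays of the same number deviated together over the array. With same-numbered arrays kept together (exact permutation test, 216 arrangements, smallest possible p = 0.00463) p was 0.0185 for both r and rho, and the adjusted p was 0.111 for both, so the correlation did not pass after adjustment. Without arrays 10 and 18, the farthest from the median for AT3G12510, r was 0.73 and rho 0.72. It was 0.62 within the silwet arrays and 0.90 within the SA arrays. With any 1 array left out r lay between 0.75 and 0.88. The log2 actin ratio was 6.85 on array 10, 0.62 on array 14 and 0.61 on array 18, where both genes were low, and 0.45 on array 13 and 1.51 on array 17, where both were high; its part in the scatter was not tested.

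The deviations of AT2G41090 and AT3G06200 correlated at r = -0.54 and rho = -0.56 (exact permutation test, two-sided, p = 0.0563 and 0.0418, adjusted p = 0.169 and 0.125). Those of AT3G06200 and AT2G31945 correlated at r = -0.47 and rho = -0.48 (exact p = 0.151 and 0.122, adjusted p = 0.301 and 0.244). Neither passed. For the other three pairs r was between -0.19 and 0.20 (exact p between 0.546 and 0.618) and rho between -0.29 and 0.24 (exact p between 0.347 and 0.550).

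**Figure D3:**
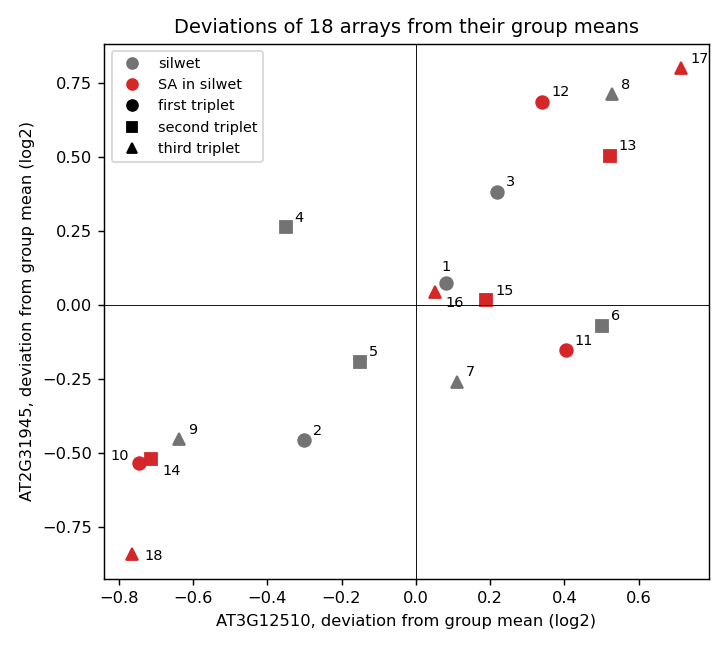
Deviation of AT2G31945 (y) against AT3G12510 (x) from the mean of the group, in log2 units, on the 18 arrays, which are numbered as in their titles, with silwet in grey and SA in red. Arrays 10, 14 and 18 lie at the lower left and arrays 12, 13 and 17, with silwet array 8, at the upper right (r = 0.81).

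Of the probe sets that name 1 gene, AT2G31945 was the one whose log2 signal over the 18 arrays was most like that of AT3G12510 (Pearson's r = 0.84), followed by AT1G05340 (0.82) and ATG8H (0.80), a member of the ATG8 family that marks the membranes of autophagy. Next to AT3G12510, those most like AT2G31945 were AT1G30700 (0.83) and AT3G62590 (0.81). AT1G05340 differed between SA and silwet by 0.68, 0.71 and 0.97 log2 units in the first, the second and the third triplet, and ATG8H by 1.20, 0.48 and 0.39. The most opposite were AT2G42690 for AT3G12510 (-0.75) and AT1G02370 for AT2G31945 (-0.79). With the mean of each group removed, r with AT3G12510 was 0.87 for AT1G05340, 0.80 for ATG8H and -0.80 for AT2G42690. With AT2G31945 it was 0.80 for AT1G30700, 0.77 for AT3G62590 and -0.77 for AT1G02370. The r of 0.81 between the 2 members was thus not particular to them. All of these r are descriptions of 18 arrays that share treatments and replicate numbers, and r over all arrays includes the SA difference.

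AT2G41090 was most like AT5G19250 (r = 0.84), AT1G19960 (0.83) and AT1G78140 (0.76). All 3 were low with SA in the second triplet, at -0.60, -1.69 and -0.48 log2 units, while AT1G66510, the most opposite (-0.74), was at 0.68. These r include the SA difference, so that shared course follows in part from how the genes were picked. With the mean of each group removed, r was 0.71, 0.55 and 0.25 for the 3 and -0.67 for AT1G66510. AT3G06200 was most like AT1G51310 (0.81), AT5G24830 (0.75) and AT1G71850 (0.75). Their differences in the first triplet were -0.42, -0.68 and -0.31, and those in the second 0.23, 0.37 and -0.05. The most opposite to AT3G06200 was AT1G55830 (-0.66). With group means removed, r was 0.77, 0.84 and 0.81 for the 3 genes most like AT3G06200 and -0.37 for AT1G55830. Over all 13651 other probe sets the median absolute r was between 0.14 and 0.18 for the 4 genes.

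AT2G41090 was set beside the other calmodulin and calmodulin-like genes, of which 30 of 46 were named by a probe set and 20 were tested. The calmodulin genes CAM1 to CAM9 were not named by a probe set and are not among the 20. In the first triplet 5 of the 20 rose with SA and 0 fell (limma, adjusted p of 0.05 over all probe sets), with a median log2 difference of 0.42, beside 845 probe sets (6.19%) that rose, 834 (6.11%) that fell and a median of -0.05 over all 13652. With the replicate number as a block the 1679 calls in both directions became 2519, and 5 of the 20 passed, with AT1G21550 (0.99) in place of AT3G01830. The 5 were AT3G47480 (1.54), AT3G01830 (1.40), AT3G25600 (1.32), AT3G03000 (0.97) and AT1G18210 (0.54). The count was 2 without SA array 10 or silwet array 2, and 3 without SA array 11 or 12 or silwet array 3. In the second triplet 0 of the 20 passed, with a median of -0.03, and CML42, with the lowest value, was at -0.60, above the -0.80 of AT2G41090. In the third 0 of the 20 passed, with a median of 0.03. Over all probe sets 0 (0%) rose and 41 (0.3%) fell in the second triplet, and 0 (0%) rose and 2 (0.0146%) fell in the third. With the block the third triplet had 7 calls. Of the list members that did not pass, the brightest were AT2G41410, at 0.37, -0.06 and -0.36 in the 3 triplets, AT1G12310, at -0.03, 0.08 and 0.15, AT3G10300, at 0.47, 0.05 and -0.36, and AT5G04170, at 0.27, 0.07 and -0.12.

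**Figure D4:**
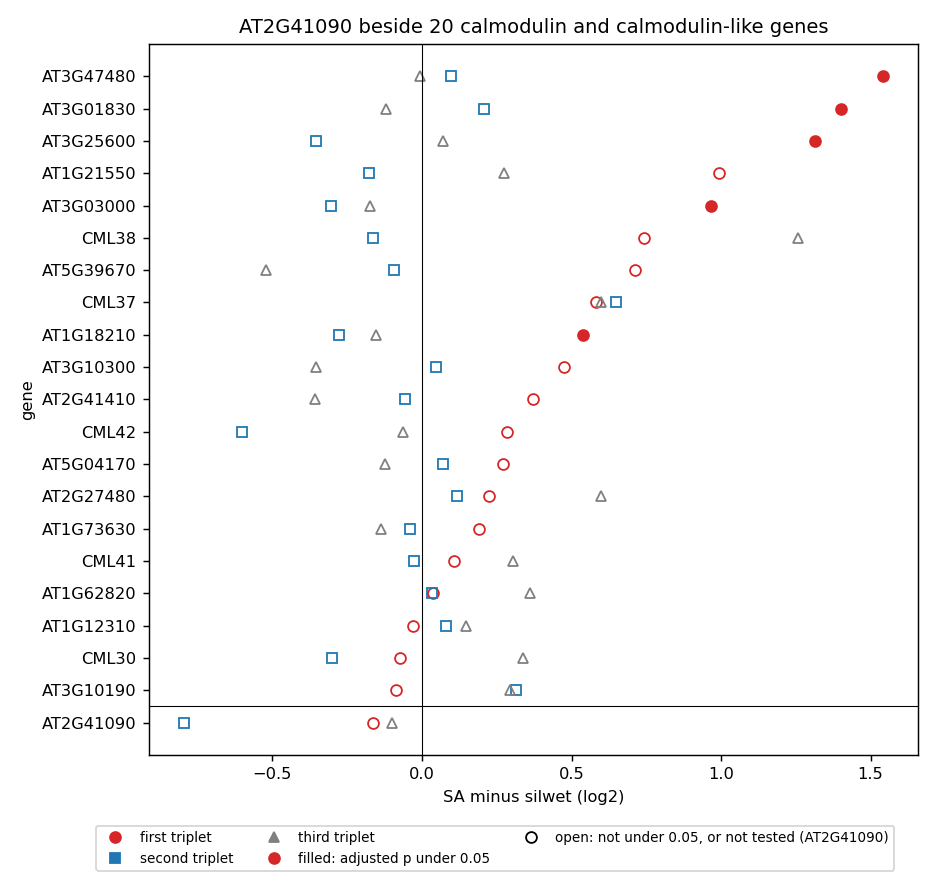
SA minus silwet (log2) in the first (red circles), second (blue squares) and the third triplet (grey triangles) for AT2G41090 and 20 tested genes of the calmodulin and calmodulin-like list. For the 20, filled symbols mark limma's adjusted p under 0.05. The symbols of AT2G41090 are drawn open whatever its p, because the gene was chosen on this contrast. The 5 filled symbols are all in the first triplet, between 0.54 and 1.54, and the second triplet of AT2G41090 is at -0.80.

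Of 19 genes known to respond to SA or to act in its signalling, 6 were named and tested, and 4 rose in the first triplet while 0 fell: UGT76B1, a glucosyltransferase of SA and isoleucic acid, by 3.55 log2 units, the glutaredoxin gene GRX480 by 2.06, the transcription factor gene WRKY53 by 1.57 and AT5G52810 by 1.55 (limma, adjusted p between 7.81e-05 and 0.00754). The median of the 6 was 1.56 in the first triplet, -0.22 in the second and -0.0038 in the third, where 0 of the 6 passed. UGT76B1 was at 2.20 in the second triplet and 1.42 in the third. It did not pass there (limma, adjusted p = 0.134 and 0.957), but passed in the second when SA array 17 or 18 was left out (adjusted p = 0.0368 and 0.0335). AT5G52810, at -0.67 in the third triplet, passed there with array weights (-0.86, adjusted p = 0.0375). SAG101 and WRKY6 were at 0.78 and 0.73 in the first triplet and did not pass, whereas SAG101 did with the replicate block (adjusted p = 0.0297), which made 5 of the 6. All 6 had their value farthest from 0 in the first triplet, whereas AT2G41090 had it in the second; the difference between these courses was not tested.

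The genes beside the members in the gene table gave no called difference. Of the 16 neighbours, 4 for each member, 6 were named by a probe set and 3 were tested. AT2G41080, the second gene before AT2G41090, was at 0.04, -0.31 and -0.66 log2 units in the 3 triplets. AT3G06210, the first after AT3G06200, was at -0.14, -0.59 and -0.39, and AT3G06180, the second before it, at 0.14, -0.14 and -0.11 (limma, adjusted p between 0.820 and 1.00 for all 3 genes).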

How the data were processed

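RNA of 18 samples was hybridised to ATH1 arrays. The deposited values are intensities on a linear scale, made by the authors with MAS5 per the submitters' processing notes. Their trimmed mean, without the highest and lowest 2% of probe sets, was 100.0 on every array. Values were raised to at least each array's 20th percentile and taken to log2. The 64 controls were dropped, as was every probe set whose mean fell below the 40th percentile, so that 13652 remained. limma 3.58.1 in R 4.3.3 was fitted over the 6 groups of 3 arrays (eBayes with trend and robust, Benjamini-Hochberg threshold 0.05 over all probe sets) and was tested on simulated data. The interaction test and the correlations (scipy 1.17.1, Python 3.11.15, all 46656 permutations within groups, or 216 with same-numbered arrays kept together) were added after the data were seen. Probe sets were named from GEO's platform annotation, in which 13513 name 1 gene, 503 several and 8794 none, updated through a RefSeq gene table. A gene that is not named there was not analysed here. A further gene list is not reported here. The named genes are the members, the 3 most like and the 1 most opposite to each, the called and some bright or extreme members of the lists, and neighbours in the gene table. The members and lists were chosen with earlier results of these data known.

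Same-numbered silwet and SA arrays of a triplet deviated together from their group means (9 pairs, r between 0.257 and 0.730). Arrays of different numbers in a triplet correlated between -0.533 and 0.0526. Deviations cancel within a group, so the same-numbered r partly fix these lower ones, which add little support. The numbers are taken to pair the arrays within a triplet because all 9 same-numbered r were positive. Same-numbered arrays of different triplets were less alike (median r 0.134, against 0.437 within a triplet). The main fit and its standard errors ignore the pairing. The replicate block takes 1 effect of each number over all triplets, so it does not model pairs within a triplet. The pairing comes from the data and no label states it in words. The titles also hold a second number whose meaning is not given. That number groups by replicate number and runs close together in same-numbered silwet and SA arrays of a triplet. Alternatives were the floor, an added 16 before log2, the filter, the replicate block, array weights, eBayes without trend, centring on the median, quantile normalization and leaving out each array.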

Additional observations from a re-analysis of the deposited data

Results flagged for a closer look

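For AT2G41090 the difference between SA and silwet differed between the triplets, at -0.17, -0.80 and -0.10 log2 units in the first, the second and the third (limma F test of the interaction, adjusted p = 0.0391), where 8.36% of the tested probe sets passed. The test was added after the data were seen, and the gene was chosen on the same contrast, so its p is no evidence independent of that choice. The adjusted p was not under 0.05 when any 1 of 14 of the 18 arrays was left out (range 0.0342 to 0.114). It was also not under 0.05 in 3 of 9 other alternatives: without the filter (0.0613), with median centring (0.107) and with eBayes without trend (0.0759). Over these 9 it ranged from 0.00199 to 0.107. The other members had adjusted p-values of 0.272 (AT3G06200), 0.916 (AT3G12510) and 0.936 (AT2G31945).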

How the results depend on the processing

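Of the 12 differences between SA and silwet (4 genes in 3 triplets), 10 kept their sign in every alternative that gave a value. Those of AT2G41090 in the first triplet and AT3G06200 in the second changed sign in 1 and 4 of 15. Quantile normalization turned the former to 0.10, moved AT2G41090 in the third to -0.26 and turned its difference between the third and first SA triplets to -0.37. Array weights moved AT2G31945 in the third triplet to 0.084. AT3G12510 gave no value with the filter at the 60th percentile. The causes were not tested. Counts of called probe sets moved as follows. Without the filter, the mean over triplets gave 7 in place of 4, the second minus first silwet triplet 75 in place of 43, and the calmodulin list 3 in place of 5. The 60th percentile filter gave 4 in the third triplet in place of 2. Median centring gave 0 there, 2 for the mean over triplets and 3 for the calmodulin list, and eBayes without trend gave 2 for the mean. Array weights gave 69 in the second triplet in place of 41, 41 in the third and 364 in the third minus first silwet triplet in place of 221. With the replicate block the counts were 2519 in the first triplet in place of 1679, 7 in the third, and 112, 6 and 358 in the silwet contrasts (the second minus the first, the third minus the second, the third minus the first), which had 43, 0 and 221. Its calls in the gene lists that differ are given beside those lists.

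With any 1 array left out, counts ranged from 931 to 1729 in the first triplet, 15 to 45 in the second, 0 to 4 in the third and 2 to 8 for the mean. They ranged from 17 to 57, 0 to 0 and 123 to 301 in the silwet contrasts, and from 3245 to 4239, 0 to 1 and 3232 to 4291 in the SA contrasts. For the replicate numbers they ranged from 473 to 1330, for the calmodulin list from 2 to 5 and for the SA list from 4 to 5. The first triplet had 931 when silwet array 3 was left out, 957 for SA array 11 and 1021 for SA array 12. The second had 19, 24 and 16 for silwet arrays 4, 5 and 6, 19 for SA array 14 and 15 for SA array 15. The second minus the first silwet triplet had 20 for silwet array 3 and 17 for silwet array 5, and the third minus the first 143 for silwet array 3 and 123 for silwet array 7. The replicate numbers had 473 for silwet array 4, 504 for SA array 16 and 615 to 750 for silwet arrays 2, 5, 6 and 7. The correlation of AT3G12510 with AT2G31945 ranged from 0.75 to 0.88. It did not pass after adjustment when same-numbered arrays were permuted together (adjusted p = 0.111). Groups of 3 arrays limit the precision of every value.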

Other observations

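Other gene lists gave few calls. Of 10 genes of ascorbate synthesis 5 were tested, and AT4G33670 fell by 0.62 log2 units with SA in the first triplet (log2 difference -0.62, limma, adjusted p = 0.00411). This is 1 of 5, beside 6.11% of all tested probe sets that fell there. Of 12 genes for guanine nucleotide enzymes 3 were tested and 0 passed. With the replicate block, GME of the first list (-0.40, adjusted p = 0.0173) and AT1G16350 of the second (-0.66, adjusted p = 0.00825) also passed in the first triplet. No gene of these 2 lists passed in the second or the third triplet. The 3 leaf genes and PYK10 did not pass in any triplet.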
